A study of Mus musculus with 12 samples.

Results

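The genes described here are Trp53, which encodes the transcription factor p53, its inhibitors Mdm2 and Mdm4, and 7 genes that p53 is known to switch on, namely Ccng1, Plk2, Zmat3, Phlda3, Trp53inp1, Gdf15 and Sesn2. They were taken by gene name from the deposited expression table, and make up 10 of its 12584 genes. All 10 were among the 10101 genes tested, which had at least 1 FPKM in at least 3 libraries. FPKM, fragments per kilobase of gene and per mega-read of library, is a level per length, so genes can be compared with each other on it. Gdf15 passed that filter through the libraries in which it was high, and Sesn2 reached 1 FPKM in all libraries without D but in 2 of 6 with it.

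The study profiled total RNA from CT26, a mouse colon carcinoma cell line, by RNA sequencing. Cells were given PBS (phosphate-buffered saline, the control), the preparation NP@M, that named NP-D@M, or NP-D@MP, each for 24 h, and each of these 4 treatments has 3 libraries. The labels do not spell out the abbreviations; the title speaks of a nanodrug wrapped in engineered cancer cell membrane, aimed at cyclin-dependent kinases and combined with an antibody to PD-L1. All groups are the same cell line with no genetic change named in the labels, and a line in culture holds neither the liver nor the immune cells of the disease that the title names. The libraries are numbered 1 to 3 for PBS, 4 to 6 for NP@M, 7 to 9 for NP-D@M and 10 to 12 for NP-D@MP. Those of NP-D@M and NP-D@MP are called libraries with D, from the letter in the treatment name, and the other 6 libraries without D.

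The p53 protein is held low in unstressed cells by a feedback loop: p53 switches on Mdm2, and Mdm2 is a ubiquitin ligase that binds p53 and sends it to the proteasome. Mdm4, a relative of Mdm2, pairs with it and blocks the activation domain of p53. After DNA damage, ribosome stress or other insults p53 is released, mostly by changes to the proteins rather than to the Trp53 message, and then raises genes for cell cycle arrest, DNA repair, cell death and metabolism. RNA levels as measured here do not show the amount or activity of the p53 protein.

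Whole reads could be recovered from the table, and each library held 12.8 to 15.7 mega-reads in all. The size that the authors' values imply for a library was 1.95 to 2.02 times that sum in the libraries without D and 0.533 to 0.565 times in those with D, which sets a gene with an equal share of the reads higher in the latter. The log2 changes of members and named genes between libraries with and without D are therefore given also with each library divided by the sum of its own reads in the table, called read scaling. It moved the median log2 change of all tested genes from -0.19 to -1.46 for NP-D@M against NP@M and from -0.16 to -1.46 for NP-D@MP against PBS. Of 8 markers of colon epithelium 2 could be read, Krt18 and Krt20. Their summed level was 15.1 to 18.7 FPKM without D and 73.0 to 91.1 FPKM with D. The defining markers Epcam, Cdh1, Vil1 and Cdx2 were sought by gene name but could not be read, so the label was not checked on them. Summed levels over the 5 of 6 fibroblast markers read were 65.8 to 79.6 FPKM without D and 10.2 to 15.2 FPKM with D, and over the 3 of 6 leukocyte markers read 2.57 to 3.25 and 9.31 to 21.3 FPKM. Those of the 2 of 4 endothelial markers stayed at or under 0.615 FPKM, and of 6 retinal markers sought by name none could be read. Those sums are on the authors' scale. By read scaling, the colon epithelium markers had a median log2 change of -0.44 in NP-D@M against NP@M in place of 1.19, with 1 called higher and 1 lower. For the 2 leukocyte markers tested it was 0.25 with 0 called, in place of 1.49 with 2 called higher, and the 3 fibroblast markers tested were lower on both scales. The part of these marker levels in the results was not tested, and in bulk RNA a change in all cells and a change in the share of cells cannot be told apart.

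Promoter sequences in the RefSeq table for GRCm38.p6 matched 8 of the 10 genes, all but Zmat3 and Trp53inp1. Each window holds 300 bases, 250 before and 50 from the annotated start onward. It was searched on both strands for the 10-letter element of the p53 consensus, whose inner C and G had to match, and for a pair of such elements 0 to 13 bases apart. Of all 32851 promoters in the table, 8.36% hold an exact element and 0.627% hold a pair with at most 1 mismatch. The 3 windows that hold an exact element are shown, those of both genes of the p53 feedback loop and of its target Ccng1, with the matched elements in capitals:
Ccng1 promoter: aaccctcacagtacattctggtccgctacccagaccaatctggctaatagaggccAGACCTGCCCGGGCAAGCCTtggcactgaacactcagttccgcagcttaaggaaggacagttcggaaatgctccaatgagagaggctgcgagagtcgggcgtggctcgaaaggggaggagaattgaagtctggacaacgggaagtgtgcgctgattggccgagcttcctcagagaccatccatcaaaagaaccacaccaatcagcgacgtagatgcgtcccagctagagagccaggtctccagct
Mdm2 promoter: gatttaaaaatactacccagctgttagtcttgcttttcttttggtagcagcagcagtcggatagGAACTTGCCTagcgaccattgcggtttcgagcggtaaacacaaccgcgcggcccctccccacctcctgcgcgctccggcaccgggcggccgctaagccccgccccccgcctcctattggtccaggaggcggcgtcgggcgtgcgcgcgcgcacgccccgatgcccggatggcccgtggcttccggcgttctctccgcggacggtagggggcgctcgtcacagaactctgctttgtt
Trp53 promoter: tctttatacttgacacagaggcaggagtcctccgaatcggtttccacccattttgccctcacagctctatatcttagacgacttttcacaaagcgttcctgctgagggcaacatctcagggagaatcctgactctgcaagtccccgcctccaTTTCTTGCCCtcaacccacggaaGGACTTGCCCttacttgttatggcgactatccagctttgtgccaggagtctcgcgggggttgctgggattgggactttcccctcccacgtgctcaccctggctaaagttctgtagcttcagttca
The Ccng1 window lies at chr11:40755237-40755536 on the minus strand. It holds an adjoining pair of elements with 1 mismatch in all, from -195 to -176 counted from the start. The Mdm2 window, at chr10:117710709-117711008 on the minus strand, holds 1 exact element that begins at -186, with no partner in range. It covers the upstream start of the gene; Mdm2 is also known to have a p53-responsive promoter in its first intron, which lies outside the window. The Trp53 window, at chr11:69580109-69580408 on the plus strand, holds an exact element that begins at -75, paired across 13 bases with another at 3 mismatches in all, a match that 15.6% of promoters reach. No exact element was found in the windows of Mdm4, Phlda3, Gdf15, Plk2 and Sesn2. An Mdm4 window does hold a pair with 3 mismatches in all, as many as in that of Trp53, from -234 to -210. A match is a description of letters and was not tested as a binding site.

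NP-D@M against NP@M compares the particle with D to the particle without it. NP-D@MP against PBS compares the other preparation with D to the control. These comparisons share no library, but their tests use 1 estimate of the spread from all 12 libraries. The shift in implied library size with D also enters both. On the authors' scale, the same 3 genes were higher and the same 7 lower with D in both. Trp53, Ccng1 and Gdf15 were the higher ones, while Mdm2, Mdm4, Plk2, Zmat3, Phlda3, Trp53inp1 and Sesn2 were lower. Calls rest on limma, with p adjusted after Benjamini-Hochberg over all tested genes and a threshold of 0.05. By that rule 89.5% of all tested genes were called in NP-D@M against NP@M (41.8% higher and 47.7% lower) and 90.5% in NP-D@MP against PBS (43.2% higher and 47.3% lower), so that all 10 members were called is close to the background. In both comparisons the values of the groups were fully apart for all 10 members, as they were for 87.3% and 93.0% of all tested genes. By read scaling 1 member was higher, Gdf15, and the other 9 were lower in both comparisons; of all genes 88.0% were then called in the former (17.5% higher and 70.5% lower) and 88.3% in the latter (17.5% and 70.7%). Quantile normalization gave 1 higher and 8 lower members in both, beside 79.5% of all genes called in the former (37.7% higher and 41.8% lower) and 80.3% in the latter (38.0% and 42.3%). Median ratio scaling gave 3 higher and 7 lower members in both, beside 89.2% (41.0% higher and 48.3% lower) and 90.6% (42.2% and 48.5%) of all genes. The directions of Trp53 and Ccng1 thus depend on the scaling, and the values under each are given with the genes. The median log2 change of the 10 members was -0.61 beside -0.19 for all genes in NP-D@M against NP@M, and -0.64 beside -0.16 in NP-D@MP against PBS; by read scaling it was -2.25 beside -1.46, and -2.16 beside -1.46. The median over all genes depends on their level: on the authors' scale, for the 4944 genes with a mean of at least 5 FPKM, it was 1.06 in NP-D@M against NP@M and 1.10 in NP-D@MP against PBS. Log2 changes are on the scale of log2(FPKM + 1), which understates the change of low genes. Whether the 3 libraries of a treatment are separate cultures is not stated in the labels; a p-value then speaks of the spread among these libraries alone, which may be technical.

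**Figure D1:**
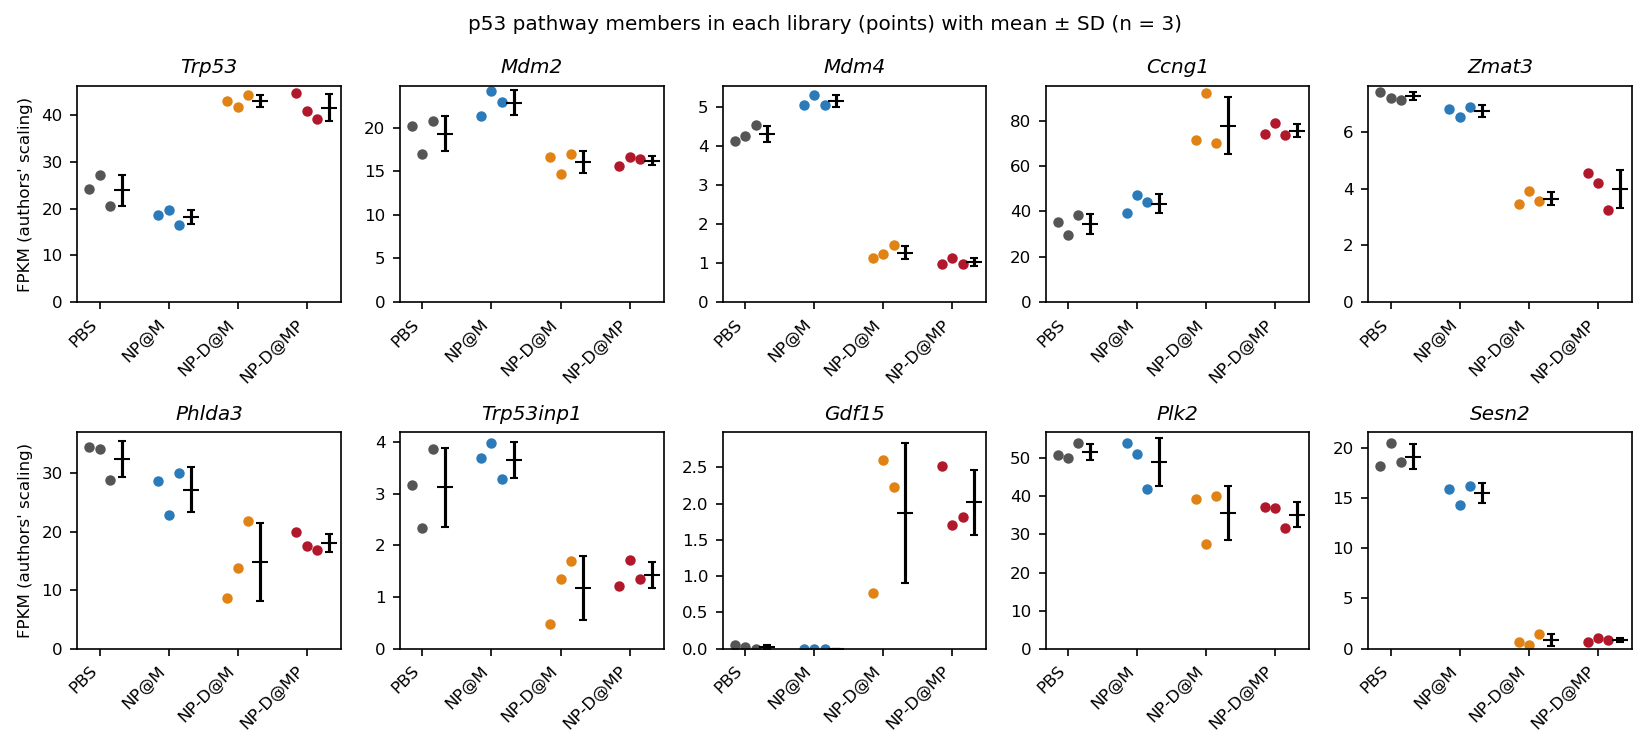
FPKM of each of the 10 genes in each of the 12 libraries, 1 panel per gene with its own vertical axis from 0; points are libraries, horizontal bars are group means and vertical lines are the SD over 3 libraries. On the authors' scale the libraries with D stand apart from those without it in every panel, narrowly for Mdm2, Plk2 and Phlda3. Of all tested genes, 87.3% were fully apart in NP-D@M against NP@M and 93.0% in NP-D@MP against PBS. Among the 7 lower genes, the fall of the mean in NP-D@M against NP@M runs from 1.38-fold for Plk2 to 19.0-fold for Sesn2.

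Trp53 lies on chromosome 11 from 69580359 to 69591873 on the plus strand (GRCm38), with 4045 bases of exon. It stood at 24.1, 27.2 and 20.5 FPKM in PBS and at 18.5, 19.6 and 16.6 FPKM in NP@M. In NP-D@M it stood at 43.1, 41.6 and 44.4 FPKM and in NP-D@MP at 44.8, 40.8 and 39.2 FPKM. All 6 libraries with D thus lie above the highest without it on this scale, and the NP@M libraries lie below those of PBS. The mean was 2.36-fold higher in NP-D@M than in NP@M, a log2 change of 1.20 with a standard error of 0.11 and a limma adjusted p of 9.09e-07. In NP-D@MP it was 1.74-fold the PBS mean, a log2 change of 0.78 with a limma adjusted p of 3.75e-05. By read scaling both turned negative, to -0.57 and -1.05, and quantile normalization gave -0.091 and -0.66. Within each library, with no scaling between libraries, the rank of Trp53 among tested genes was at 84.0% to 90.0% without D. With D it was at 83.2% to 84.9%, so the pooled ranges overlap. By group it lay at 87.3% to 90.0% in PBS and 84.0% to 86.7% in NP@M. It lay at 84.5% to 84.9% in NP-D@M and 83.2% to 84.2% in NP-D@MP. The ranks of Trp53 thus overlapped in NP-D@M against NP@M, and were apart and lower in NP-D@MP against PBS. Of the 50-base words in its exons 3.95% also occur in other genes, among them the copy Trp53-ps, and reads there may have been split between them.

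Mdm2, the ubiquitin ligase of the loop, was lower with D in NP-D@M by every scaling, by less than most of the other 6 lower genes on the authors' scale. The gene lies on chromosome 10 from 117688875 to 117710758 on the minus strand. It stood at 20.2, 17.0 and 20.7 FPKM in PBS, at 21.4, 24.2 and 23.0 FPKM in NP@M, at 16.7, 14.7 and 16.9 FPKM in NP-D@M and at 15.6, 16.7 and 16.4 FPKM in NP-D@MP. The lowest library without D, a PBS library, lies just above the highest with D. NP-D@M had a mean 1.42-fold below NP@M, with a log2 change of -0.48 (SE 0.10, limma adjusted p = 0.000721), and -2.22 by read scaling. In NP-D@MP against PBS the log2 change was -0.23 with a limma adjusted p of 0.043, which passed the threshold narrowly, and -2.02 by read scaling. The call in that comparison was lost with a pseudocount of 0.1 (limma adjusted p = 0.0526) and in a fit of only the libraries compared (0.0536). Mdm2 also lost it in that comparison without PBS replicate 1 or 3 (limma adjusted p = 0.131 and 0.141), without NP@M replicate 5 or 6 (0.0502 and 0.0578) and without NP-D@MP replicate 10, 11 or 12 (0.109, 0.0625 and 0.0728). Its rank within a library fell from between 83.3% and 89.4% of tested genes without D to between 72.5% and 74.7% with D.

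Mdm4, the relative of Mdm2 that blocks p53, was in the middle of the tested genes by level without D and lower with D. The gene lies on chromosome 1 from 132959484 to 133030561 on the minus strand. It stood at 4.14, 4.26 and 4.55 FPKM in PBS, at 5.05, 5.32 and 5.05 FPKM in NP@M, at 1.12, 1.23 and 1.46 FPKM in NP-D@M and at 0.967, 1.14 and 0.976 FPKM in NP-D@MP. No library with D reached a level above 1.46 FPKM, which is far under the lowest without D. The mean fell 4.05-fold in NP-D@M against NP@M (log2 change -1.44, SE 0.09, limma adjusted p = 1.73e-08) and 4.20-fold in NP-D@MP against PBS (log2 change -1.39, limma adjusted p = 2.32e-08). The change was -2.72 and -2.62 by read scaling. Its rank within a library was at 44.9% to 53.5% of tested genes without D and at 23.0% to 30.1% with D. Of its 50-base exon words 7.31% occur in other genes, Mdm4-ps among them.

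The balance within the loop can be read as a ratio of 2 genes in 1 library, which no library size enters. The log2 ratio of Mdm2 to Trp53 FPKM was between -0.68 and 0.47 in the 6 libraries without D (mean 0.01 ± 0.42, SD) and between -1.52 and -1.25 in the 6 with D (mean -1.39 ± 0.11). In plain ratios, Mdm2 stood at 0.625 to 1.38 times Trp53 without D and at 0.348 to 0.419 times with D. The means differed by -1.40. The exact two-sided permutation test of 6 against 6 libraries gave p = 0.00216, the smallest it can give. The value was the same after Benjamini-Hochberg adjustment over the 3 ratios. This test pooled 2 treatments on each side, because with 3 against 3 libraries it cannot give a p under 0.1. The 6 libraries of a side are thus not replicates of 1 condition. For Mdm4 to Trp53 the log2 ratio was -2.14 ± 0.39 without D and -5.22 ± 0.21 with D, a difference of -3.07. For Mdm2 to Mdm4 it was 2.15 ± 0.10 without D and 3.83 ± 0.22 with D, a difference of 1.67. Both gave the same exact permutation p of 0.00216. On a scale free of library size, Trp53 thus gained on both inhibitors and Mdm2 gained on Mdm4. How many other gene pairs reach this smallest p was not computed. Groups were fully apart for 87.3% of all tested genes in NP-D@M against NP@M and 93.0% in NP-D@MP against PBS. The p therefore does not set these 3 ratios apart from other pairs. A ratio removes the library size, but not a change that goes with the level of a gene. Leaving out any 1 library, the 3 differences ranged from -1.54 to -1.31, from -3.18 to -2.99 and from 1.62 to 1.73.

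By group, the mean log2 ratio of Mdm2 to Trp53 was -0.30 ± 0.35 (SD, n = 3) in PBS, 0.33 ± 0.13 in NP@M, -1.42 ± 0.07 in NP-D@M and -1.36 ± 0.14 in NP-D@MP. PBS and NP@M did not overlap in this ratio, with a difference of 0.63, nor in that of Mdm4 to Trp53, with a difference of 0.64; the exact permutation test of 3 against 3 gave p = 0.1 for each, the smallest it allows. The groups with D differed by 0.06 in Mdm2 to Trp53, by -0.25 in Mdm4 to Trp53 and by 0.31 in Mdm2 to Mdm4, and overlapped in all 3 ratios.

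**Figure D2:**
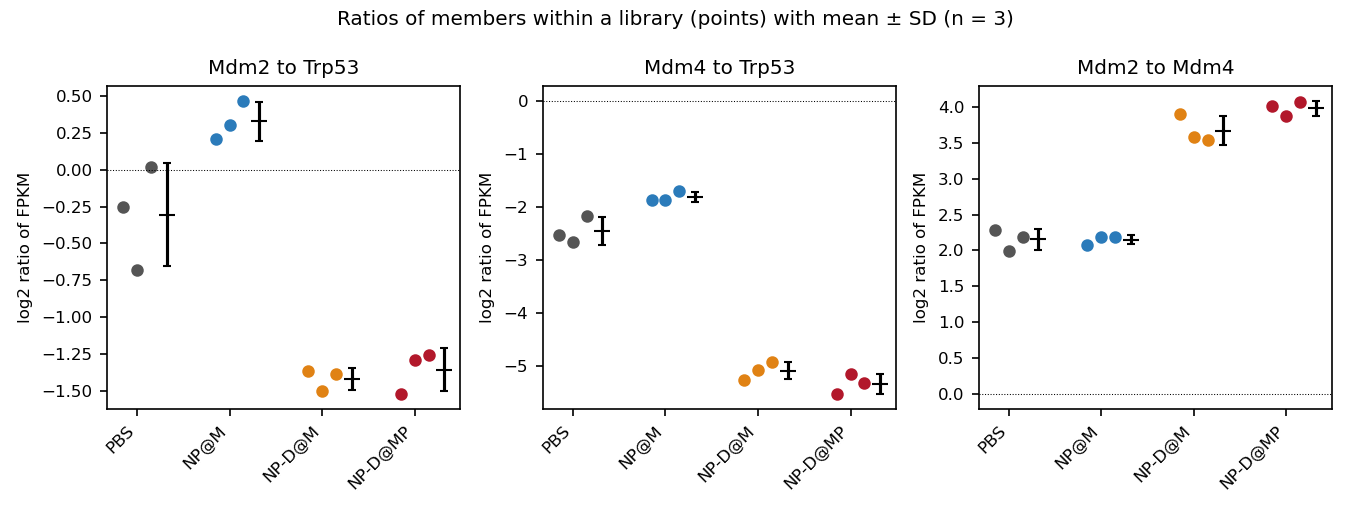
Log2 ratio of FPKM between members of the p53 loop in each library, 1 panel for each of Mdm2 to Trp53, Mdm4 to Trp53 and Mdm2 to Mdm4; points are libraries by treatment, and bars beside them are the mean and SD of 3 libraries. The 6 libraries with D lie below all 6 without it in the first 2 panels and above them in the last, with differences of -1.40, -3.07 and 1.67 between the means.

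Among the target genes tied to the cell cycle, Ccng1 and Plk2 went in opposite directions on the authors' scale. Ccng1 encodes cyclin G1, which brings a phosphatase to Mdm2, and lies on chromosome 11 from 40748552 to 40755311. It stood at 35.3, 29.5 and 38.3 FPKM in PBS, at 39.1, 47.2 and 44.0 FPKM in NP@M, at 71.3, 92.2 and 70.2 FPKM in NP-D@M and at 74.3, 78.9 and 73.5 FPKM in NP-D@MP. Every library with D is above every library without it, and Ccng1 is the most abundant of the 10 genes with D, where Plk2 held that place without it. The mean was 1.79-fold higher in NP-D@M than in NP@M (log2 change 0.82, SE 0.13, limma adjusted p = 9.47e-05) and 2.20-fold higher in NP-D@MP than in PBS (log2 change 1.12, limma adjusted p = 6.75e-06). By read scaling these Ccng1 changes became -0.98 and -0.73, and with quantile normalization -1.03 and -0.70. Its rank within a library was at 90.9% to 94.8% without D and at 88.3% to 90.9% with D. Its promoter, printed above, is the one with the closest pair of p53 elements among those searched here.

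Plk2, a polo-like kinase that acts in centriole duplication, ranged from 42.0 to 54.1 FPKM in the libraries without D and from 27.5 to 40.0 FPKM in those with D. The fall was 1.38-fold in NP-D@M against NP@M (log2 change -0.46, limma adjusted p = 0.0115) and 1.47-fold in NP-D@MP against PBS (log2 change -0.54, limma adjusted p = 0.00457). The gap between the ranges is narrow, and by read scaling the changes were -2.25 and -2.38.

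Zmat3, an RNA-binding zinc finger protein, held a tight level without D, from 6.51 to 7.41 FPKM, and lay between 3.25 and 4.55 FPKM with D. It fell 1.85-fold in NP-D@M against NP@M (log2 change -0.74, SE 0.10, limma adjusted p = 2.91e-05) and 1.81-fold in NP-D@MP against PBS (log2 change -0.73, limma adjusted p = 3.08e-05), and by read scaling the log2 changes were -2.25 and -2.30. Phlda3, whose protein competes with the kinase Akt for membrane lipids, spread more widely among the libraries of 1 treatment. It stood at 34.4, 34.1 and 28.9 FPKM in PBS, at 28.6, 22.8 and 30.1 FPKM in NP@M, at 8.63, 13.9 and 21.9 FPKM in NP-D@M and at 19.9, 17.5 and 16.8 FPKM in NP-D@MP. NP-D@M replicate 9, at 21.9 FPKM, comes close to the lowest library without D, at 22.8 FPKM. The log2 change was -0.91 (SE 0.25, limma adjusted p = 0.00416) in NP-D@M against NP@M and -0.81 (limma adjusted p = 0.00842) in NP-D@MP against PBS, or -2.64 and -2.62 by read scaling. Trp53inp1, a nuclear stress protein that works with p53 and takes part in autophagy, ranged from 2.35 to 3.99 FPKM without D and from 0.478 to 1.71 FPKM with D. Its mean fell 3.13-fold in NP-D@M against NP@M (log2 change -1.14, limma adjusted p = 0.000244) and 2.20-fold in NP-D@MP against PBS (log2 change -0.76, limma adjusted p = 0.0044), with log2 changes of -2.35 and -2.01 by read scaling. For Trp53inp1 the NP-D@MP call was lost with quantile normalization (log2 change -0.20, limma adjusted p = 0.366). Its pooled ranks within a library overlap, at 26.9% to 43.4% without D and 15.3% to 33.9% with D. By group they overlapped in NP-D@MP (27.4% to 33.9%) against PBS (26.9% to 42.9%). They were apart in NP-D@M (15.3% to 33.1%) against NP@M (37.2% to 43.4%).

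On the authors' scale Sesn2 and Gdf15 had the largest log2 changes of the 10 genes, down and up respectively, in both comparisons of libraries with D to those without. Both are known as targets of p53 and also of the stress factor ATF4. Sesn2 encodes a leucine-binding protein that restrains the growth kinase complex mTORC1, and lies on chromosome 4 from 132492032 to 132510501. It stood at 18.2, 20.5 and 18.5 FPKM in PBS and at 15.8, 14.3 and 16.2 FPKM in NP@M. With D it stood at 0.651, 0.317 and 1.47 FPKM in NP-D@M and at 0.654, 1.02 and 0.888 FPKM in NP-D@MP. These are 1473 to 2183 reads per library without D and 8 to 42 reads with D. The mean fell 19.0-fold in NP-D@M against NP@M (log2 change -3.23, SE 0.19, limma adjusted p = 1.32e-08) and 22.3-fold in NP-D@MP against PBS (log2 change -3.44, limma adjusted p = 7.66e-09). Without NP-D@M replicate 9, the library with 42 reads, the former fold was 31.9. By read scaling the log2 changes were -4.47 and -4.73. Sesn2 passed the filter only through libraries without D, where it was high, so its calls and adjusted p-values add no support of their own. In NP-D@M against NP@M, 0.446% of tested genes had a lower log2 change than Sesn2, and its rank within a library moved from between 80.7% and 86.2% of tested genes to between 11.1% and 30.4%.

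Gdf15 encodes a secreted stress cytokine of the TGF-beta family and lies on chromosome 8 from 70629393 to 70632456. It had 3, 1 and 0 reads in the PBS libraries and none in NP@M, against 12, 35 and 34 reads in NP-D@M and 35, 24 and 24 reads in NP-D@MP. The levels with D were 0.772, 2.61 and 2.24 FPKM in NP-D@M and 2.53, 1.71 and 1.82 FPKM in NP-D@MP. Without D the highest value was 0.0528 FPKM, so the groups are well apart, yet the level with D is still among the lower ones of the table. With a floor of 3 reads per library for NP@M, NP-D@M was at least 35.2-fold higher, and at least 9.85-fold higher by read scaling. NP-D@MP had 83 reads in all against 4 in PBS, a ratio of 83.7 (95% exact interval 31.5 to 314) and, by read scaling, of 22.6 (8.50 to 84.8); these intervals cover counting error only. The limma log2 changes were 1.46 (SE 0.22, adjusted p = 5.03e-05) and 1.55 (adjusted p = 2.98e-05), and 0.99 in each comparison by read scaling. Gdf15 passed the filter only through libraries with D, where it was high, so these calls and adjusted p-values add no support of their own. It was the only member higher with D by all 4 scalings tried in either comparison. The share of all tested genes higher by all 4 was not computed. Its annotated 3′ UTR of 150 bases holds 5 copies of ATTTA, the core of a known mRNA decay element, or 33.3 per kb, where the median of 8614 tested genes was 1.30 per kb. For Mdm2 that density was 5.99 per kb, for Ccng1 3.45, for Mdm4 3.31, for Plk2 3.23 and for Trp53 2.27. For Trp53inp1 it was 1.81, for Zmat3 1.20 and for Sesn2 0.594, and Phlda3 had none. The values for Mdm4, Trp53 and Sesn2 each rest on 1 copy, and that for Plk2 on 2 copies. A link between this density and the direction of change was not tested.

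**Figure D3:**
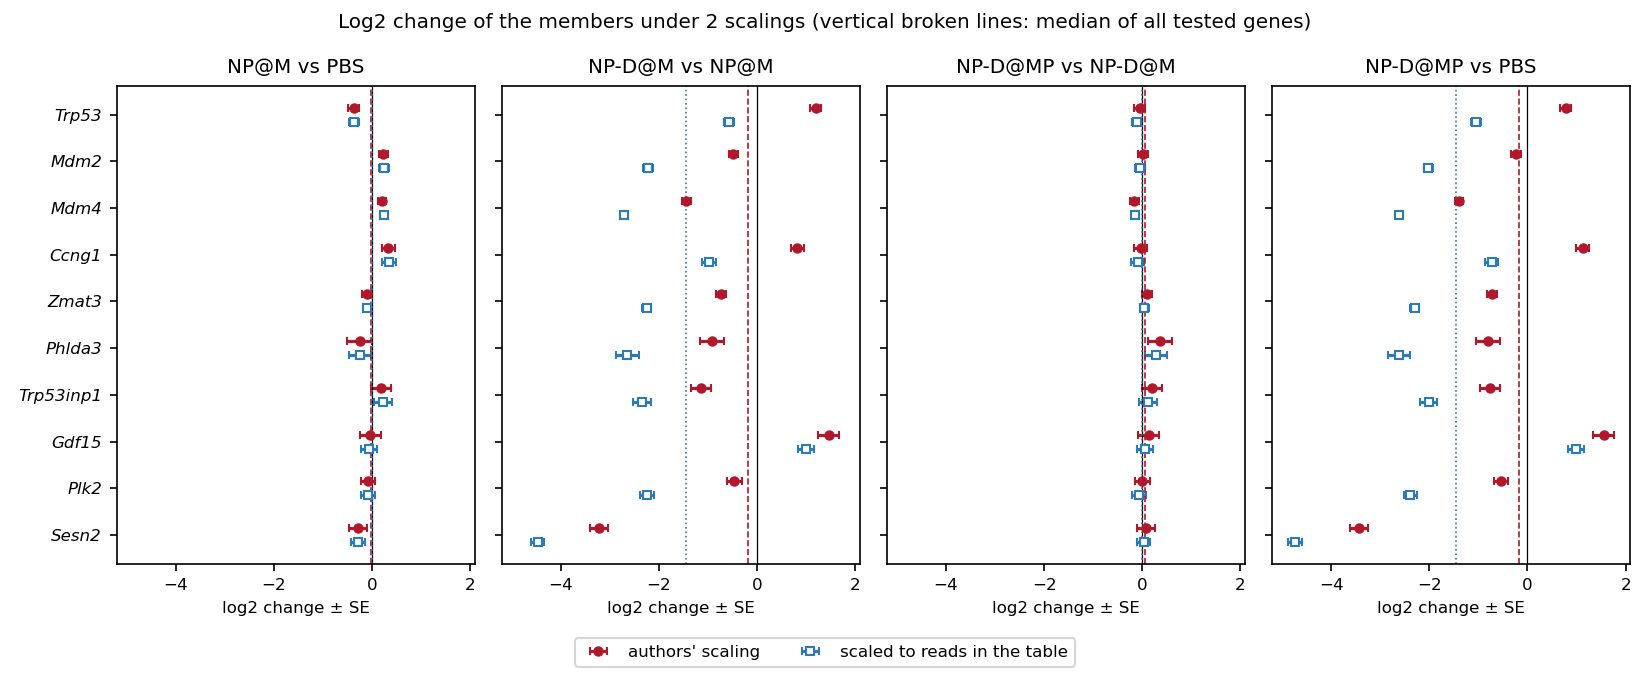
Log2 change (horizontal axis, log2(FPKM + 1) scale) of the 10 genes in the 4 comparisons, 1 panel each; filled circles are limma estimates on the authors' scale and open squares the fit by read scaling, bars are standard errors, and the dashed and dotted lines are the medians of all tested genes on the respective scale. In NP-D@M against NP@M and in NP-D@MP against PBS, Trp53 and Ccng1 lie on opposite sides of 0 by scaling (1.20 and -0.57 for Trp53 in the former), while Gdf15 lies above 0 and Sesn2 lowest on both.

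Between the preparations with D, NP-D@MP and NP-D@M, none of the 10 genes was called by limma, and the groups overlapped for all 10, beside 14.2% of tested genes whose groups did not. Of all tested genes 0.0495% were called, 0.0396% as higher, and 17.0% had an unadjusted p under 0.05, and a count model on the recovered reads (limma voom) called no member either. The log2 changes of the members lay between -0.16 for Mdm4 (limma adjusted p = 0.356) and 0.36 for Phlda3 (limma adjusted p = 0.47). For Trp53 the log2 change was -0.05, with a 95% interval from -0.29 to 0.20, and for Mdm2 0.01, from -0.21 to 0.23. The interval for Phlda3, from -0.18 to 0.90, is the widest of the 10 and leaves room for a higher level in NP-D@MP. Without NP-D@M replicate 9 Phlda3 was called higher in NP-D@MP, by 0.67 with a limma adjusted p of 0.0422.

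Between the particle without D, NP@M, and PBS no member was called by limma, beside 0.0099% of tested genes called and 10.8% with an unadjusted p under 0.05; limma voom on the recovered reads called no member. NP@M and PBS did not overlap for 6 of the 10 genes, beside 28.4% of tested genes. Trp53, Zmat3 and Sesn2 had lower values in every NP@M library, and Mdm2, Mdm4 and Ccng1 higher values. The log2 change was -0.37 for Trp53 (limma adjusted p = 0.448, 95% interval -0.61 to -0.12), 0.24 for Mdm2 (0.456, interval 0.02 to 0.45), 0.21 for Mdm4 (limma adjusted p = 0.45) and 0.33 for Ccng1 (limma adjusted p = 0.45). These values share the PBS and NP@M libraries with the comparisons above, and did not pass the test after adjustment over all genes.

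The wider pathway was described with 6 lists by role, 72 genes in all, of which 61 are in the table. The lists were not matched by level to all tested genes, whose median change depends on level. Their counts are to be read beside those over all tested genes, of which 41.8% were higher and 47.7% lower in NP-D@M against NP@M and 43.2% and 47.3% in NP-D@MP against PBS; by read scaling these shares were 17.5% and 70.5%, and 17.5% and 70.7%. Among regulators of p53, 3 of 17 tested genes were higher and 13 lower in NP-D@M against NP@M, and 2 and 12 in NP-D@MP against PBS, with medians of -0.93 and -0.80 beside -0.19 and -0.16 for all genes. With read scaling, 2 regulators were higher and 15 lower in both comparisons. The ribosomal proteins Rpl5 and Rpl11, which can bind Mdm2 and block it, were the ones higher on both scales: Rpl5 went from 162 ± 5.31 to 784 ± 29.2 FPKM (SD, n = 3) between NP@M and NP-D@M, and Rpl11 from 89.9 ± 7.71 to 722 ± 196 FPKM. The log2 changes were 2.27 and 2.96, and 0.44 and 1.13 by read scaling. With quantile normalization Rpl5 turned to -0.57 in NP-D@M against NP@M and -0.43 in NP-D@MP against PBS. Ep300, an acetyltransferase that works with p53, went from 5.64 ± 0.126 to 1.08 ± 0.294 FPKM, and Usp7, a deubiquitinase of Mdm2 and p53, from 9.21 ± 0.660 to 3.78 ± 0.257 FPKM, with log2 changes of -2.94 and -2.64 by read scaling. Usp10, a deubiquitinase of p53, went from 5.19 ± 0.602 FPKM in PBS to 0.316 ± 0.0243 FPKM in NP-D@MP, a log2 change of -2.23, and -3.27 by read scaling. Usp10 passed the filter only through libraries without D, so its call adds no support of its own.

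Of the 8 tested targets tied to cell cycle arrest, 1 was higher and 6 lower in NP-D@M against NP@M, and 2 and 6 in NP-D@MP against PBS, close to the 89.5% and 90.5% of all tested genes called. The medians were -1.29 and -1.42, beside -0.19 and -0.16 for all genes. Cdkn1a, the kinase inhibitor p21 and the best known p53 target, fell from 38.4 ± 4.15 FPKM in NP@M to 9.41 ± 0.685 FPKM in NP-D@M (log2 change -1.92, limma adjusted p = 1.68e-08, and -3.63 by read scaling). Gadd45a, a stress sensor in growth arrest, fell from 27.9 ± 2.88 to 2.73 ± 0.603 FPKM, a log2 change of -2.96, and -4.49 by read scaling. Btg2, an anti-proliferative cofactor of mRNA deadenylation, went from 7.26 ± 0.846 FPKM in PBS to 16.0 ± 2.21 FPKM in NP-D@MP, a log2 change of 1.04 that became -0.69 by read scaling, and in NP-D@M against NP@M its change of 1.46 became -0.15. By read scaling none of the 8 was higher in either comparison, while 6 were lower in NP-D@M against NP@M and 7 in NP-D@MP against PBS.

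Of 10 tested cell death targets, 3 were higher and 5 lower in NP-D@M against NP@M, and 2 and 6 in NP-D@MP against PBS, where 89.5% and 90.5% of all tested genes were called. By read scaling 2 were higher and 8 lower in the former and 1 and 8 in the latter. The medians were -0.42 and -0.72, beside -0.19 and -0.16 for all genes. Bax, which opens the mitochondrial outer membrane, went from 40.3 ± 2.45 to 191 ± 25.2 FPKM between NP@M and NP-D@M, and Siva1 from 9.16 ± 1.93 to 66.0 ± 13.9 FPKM. By read scaling the log2 changes there were 0.40 for Bax in place of 2.21 and 0.98 for Siva1 in place of 2.72, and with quantile normalization the Bax call was lost (log2 change 0.15, limma adjusted p = 0.232). The Bax change in NP-D@MP against PBS, 2.08, was 0.21 by read scaling, with a limma adjusted p of 0.0943, and -0.12 with quantile normalization. Bid, which links death receptors to mitochondria, went from 7.14 ± 0.410 to 0.487 ± 0.409 FPKM, and Ei24 from 5.48 ± 0.463 to 2.62 ± 0.297 FPKM, with log2 changes of -3.60 and -2.28 by read scaling. Of 5 tested targets in DNA repair and nucleotide supply, 2 were higher and 3 lower in NP-D@M against NP@M and 1 and 1 in NP-D@MP against PBS, beside the same 89.5% and 90.5% of all genes called, and all 5 were lower in both by read scaling. Rrm2b, a ribonucleotide reductase subunit, changed by 0.67 in NP-D@M against NP@M and by -0.85 under that scaling. Polh, a bypass DNA polymerase, changed by -1.42 and by -2.71.

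Of 9 tested targets in metabolism and autophagy, 3 were higher and 5 lower in both comparisons, and 3 and 6 by read scaling, where 89.5% and 90.5% of all tested genes, and 88.0% and 88.3% by read scaling, were called. Gpx1, a glutathione peroxidase, went from 94.5 ± 7.50 to 1076 ± 57.9 FPKM between NP@M and NP-D@M, and Tsc2, part of a brake on mTORC1, from 5.06 ± 0.171 to 28.2 ± 1.48 FPKM. The log2 changes were 3.50 and 2.27, and 1.67 and 0.59 by read scaling. Prkab1, a subunit of the kinase AMPK, went from 7.84 ± 0.729 to 4.23 ± 1.68 FPKM, a log2 change of -0.81, and -2.34 by read scaling. Tsc2 and Sesn2, which both restrain mTORC1, thus had opposite directions on both scales. Of 6 tested targets with secreted, surface or nuclear body products, 2 were higher and 4 lower in both comparisons, against 89.5% and 90.5% of all tested genes called, and 0 were higher and 5 lower in both by read scaling. Pml, which builds nuclear bodies, changed by -2.35 in NP-D@M against NP@M, and Thbs1, the matrix protein thrombospondin, by -2.91, or by -3.64 and -3.98 by read scaling. Ak1, an adenylate kinase, changed by 1.57 and Ninj1, a membrane protein, by 0.73, and these became -0.18 and -0.99 by read scaling. In NP@M against PBS and in NP-D@MP against NP-D@M, none of the 6 lists had a gene called by limma.

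**Figure D4:**
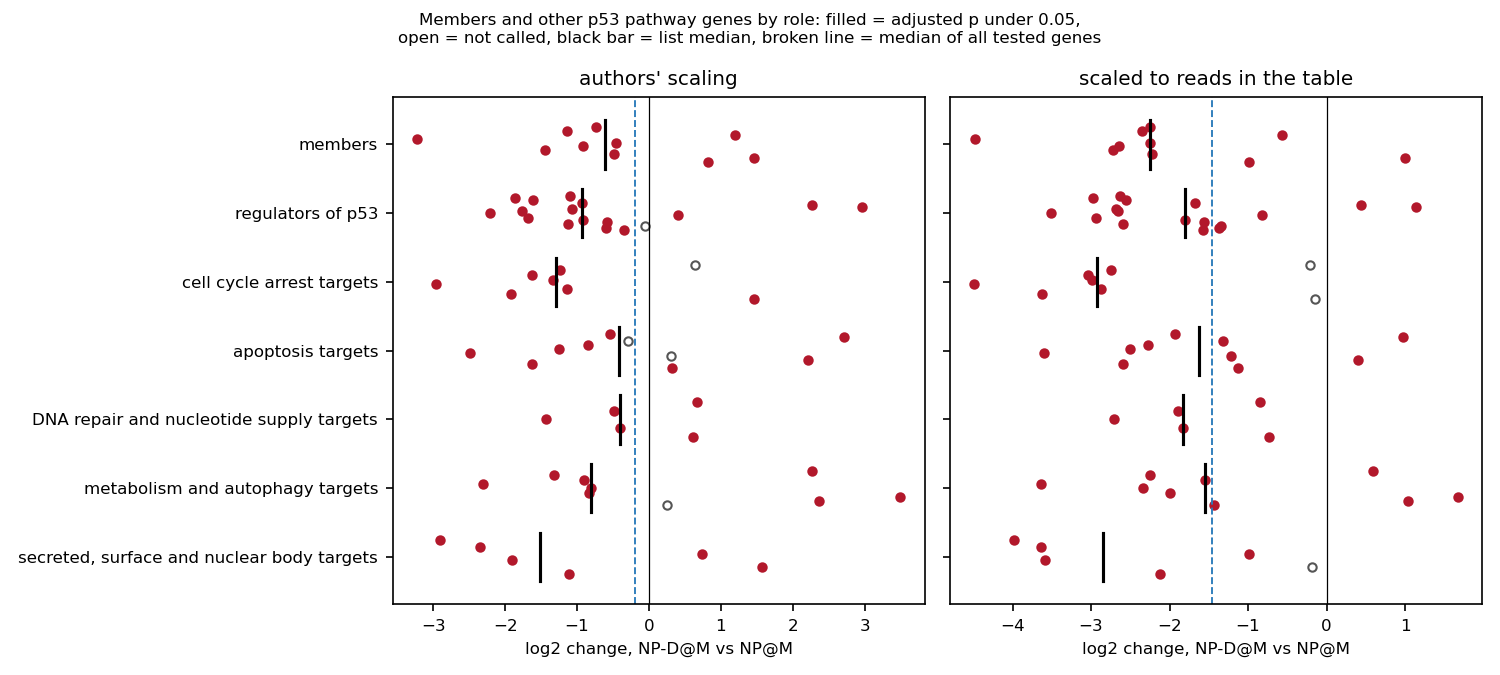
Log2 change (horizontal axis) of the tested genes in NP-D@M against NP@M, 1 row for the 10 genes described first (named members there) and 1 for each of the 6 role lists, on the authors' scale on the left and by read scaling on the right; filled points are genes called by limma, open points are not, black bars are list medians and the dashed line is the median of all tested genes. On the authors' scale the list medians lie between -1.51 for the secreted, surface and nuclear body targets and -0.40 for the repair targets, each below the median of all tested genes, -0.19. That median depends on level, and was 1.06 for the 4944 genes with a mean of at least 5 FPKM. The lists were not matched by level.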

How the data were processed

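The authors deposited 1 table of FPKM values for 12584 genes in 12 libraries, with gene identifiers, coordinates and lengths; all sample columns were used. Per the submitters' processing notes, Bowtie 0.12.2 and mm8 were used, but the coordinates in the table are those of GRCm38. The gene counter and strand setting are not given in the sources used here, and the labels' protocol text speaks of retinas although the samples are labelled CT26. FPKM times length was a whole multiple of 1 step per library for 100% of values (relative tolerance 1e-06), which gave reads and the library size the authors had divided by. Replicate libraries differed by more than sampling noise, so none was treated as a duplicate.

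Groups came from the sample titles. All values were tested as log2(FPKM + 1) with limma (version 3.58.1, R version 4.3.3), all 12 libraries in 1 fit, on the 10101 genes with at least 1 FPKM in at least 3 libraries, with Benjamini-Hochberg adjustment over all of them and a threshold of 0.05. Ratios within a library were tested by exact permutation in SciPy 1.17.1. The members and lists were chosen with earlier results of these data known. Named beside the 10 members are, per role list, comparison and direction, at most the 2 called genes with the smallest adjusted p, at least 5 FPKM on average in the higher group, and groups that do not overlap. Of the genes this rule names, 1 is not reported here. Alternatives were 3 other scalings (reads in the table, median ratio, quantile), no filter, a filter on a mean of 5 FPKM, a pseudocount of 0.1, a trended robust fit, only the libraries compared, limma voom on the reads, an adjusted p under 0.01, and leaving out each library. The fit was tested on simulated data in which most genes were unchanged, unlike here, so that test does not speak to the scaling.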

Additional observations from a re-analysis of the deposited data

How the results depend on the processing

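The sign of the change of Trp53, Ccng1 and several other genes that were higher on the authors' scale depended on the scaling. By read scaling, and also with quantile normalization, 1 member was higher in place of 3, in NP-D@M against NP@M and in NP-D@MP against PBS. In NP-D@M against NP@M, read scaling gave log2 changes of -0.57 for Trp53, -0.98 for Ccng1, -0.15 for Btg2, -0.85 for Rrm2b, -0.18 for Ak1 and -0.99 for Ninj1, and quantile normalization gave -0.091 for Trp53, -1.03 for Ccng1 and -0.57 for Rpl5. In NP-D@MP against PBS, read scaling gave -1.05 for Trp53, -0.73 for Ccng1, -0.69 for Btg2, -0.90 for Rrm2b, -0.19 for Ak1 and -0.86 for Ninj1, and quantile normalization gave -0.66 for Trp53, -0.70 for Ccng1, -0.43 for Rpl5 and -0.12 for Bax. Not every negative value here is a called fall. Ak1 by read scaling was not called in either comparison, nor was Btg2 by read scaling in NP-D@M against NP@M. Bax with quantile normalization was not called in NP-D@MP against PBS. Trp53 with quantile normalization in NP-D@M against NP@M was called in neither direction (limma adjusted p = 0.496). Which scaling is the better one was not tested. Of the 10 members, 7 were called lower by all 4 scalings in NP-D@M against NP@M and 6 in NP-D@MP against PBS. The share of all tested genes called lower by all 4 was not computed, so these counts do not set the members apart. By single scalings, 41.8% to 70.5% of all tested genes were called lower in the former and 42.3% to 70.7% in the latter. With a mean of at least 5 FPKM required, 7 members were left to test, beside all-gene medians of 1.06 and 1.10 in these comparisons. Leaving out any 1 library, members called higher ranged from 0 to 1 in NP-D@MP against NP-D@M, the 1 being Phlda3 without NP-D@M replicate 9. No paired analysis was possible because the groups share no replicate number. Depth limits Sesn2 with D, at 8 to 42 reads, and Gdf15, at 12 to 35.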
